A study of Mus musculus with 10 samples.

Results

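Transforming growth factor beta (TGF-beta) signaling genes were followed in 10 RNA sequencing libraries of mouse mammary fibroblasts and lobular tumor cells. The set held 10 of the 55486 genes in the count table, chosen by name: the ligands Tgfb1, Tgfb2 and Tgfb3, the receptors Tgfbr1, Tgfbr2 and Tgfbr3, and the latent TGF-beta binding proteins Ltbp1, Ltbp2, Ltbp3 and Ltbp4. All 10 passed the filter on low counts in every comparison. TGF-beta is secreted as a latent complex, in which its own propeptide holds it inactive and a latent binding protein tethers it to the extracellular matrix. Once released by integrins or proteases, it binds the type II receptor, which recruits and activates the type I receptor, and SMAD proteins then carry the signal to the nucleus. In tissue with tumors the pathway is known for driving fibroblasts toward contractile, matrix-producing states.

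Normal fibroblasts (NFs) were isolated from mTmG mice aged 8 weeks, whose cells are red (Tomato) until Cre recombinase turns them green (GFP). Mammary glands of several mice were pooled for a sort, so an NF library is no single animal. NFs were sorted into CD26- and CD26+ subsets, CD26 being the surface protein encoded by Dpp4. The CD26+ NFs received an adenovirus carrying Cre and turned green, whereas the CD26- NFs received none and stayed red, so virus exposure and subset cannot be told apart. Tumor cells were the lines 13-MCB-17 and 10-SJK-221 from end-stage tumors of an invasive lobular carcinoma model, in which Cre under the mammary epithelial Wap promoter removes floxed Cdh1 (WapCre;Cdh1 F/F with a further floxed allele). Every gel, of collagen and basement membrane extract, was cultured for 7 days and then sorted by color. Gel 1 held both NF subsets without tumor cells (1 library each), gels 2 and 3 held 13-MCB-17 or 10-SJK-221 cells alone (1 library each), and gels 4 and 5 held both NF subsets with 13-MCB-17 or 10-SJK-221 cells (3 libraries each). NFs alone therefore had no replicate, and the replicates of each other group differed in the tumor line they were or met. Levels are given as CPM, the counts of a gene per 1000000 counts of its library. A gene was called at an adjusted p under 0.05 in edgeR's quasi-likelihood test over all genes, and SE is the standard error of a log2 fold change.

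Libraries held 14142334 to 18408940 counts, and 3 counts, the most that an observed 0 allows, correspond to 0.163 to 0.212 CPM. Dpp4 was at 0.281 to 0.771 CPM in CD26+ NFs and at 0 to 0.0575 CPM in CD26- NFs, so the sorting marker followed the labels at few counts. Cdh1, whose deletion removes exons that gene counts cannot single out, had 139.9 to 269 CPM in tumor cells, so its count does not check the deletion. Summed over 8 epithelial markers, NFs alone had 0.807 to 1.05 CPM, co-cultured NFs 118 to 319 CPM and tumor cells 4041 to 5413 CPM. Summed over 8 fibroblast markers, NFs alone had 74846 (CD26-) and 69497 CPM (CD26+), and co-cultured NFs had less, 37998 and 41536 CPM in the CD26- subset and 23317 and 29343 CPM in the CD26+ subset. Tumor cells had 38.7 to 71.7 CPM alone and 107 to 177 CPM in co-culture. The sum over 5 pericyte markers ran from 43.2 to 85.6 CPM without tumor cells and from 206 to 554 CPM with them. For 5 endothelial markers the highest sum of any library was 24.5 CPM. For 5 immune markers NFs ranged from 5.59 to 10.04 CPM without and from 32.3 to 64.0 CPM with tumor cells. Tumor cells had 302 and 101 CPM without NFs and 92.8 and 48.1 CPM with them. The leukocyte gene Ptprc had at most 2 counts in any library. In bulk libraries, fewer cells of a type and less RNA per cell cannot be told apart.

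Per exon length, NFs alone were dominated by receptor and latent binding protein transcripts. In CD26- NFs alone the highest levels were those of Ltbp2 (189.9 CPM per kb of exon), Tgfbr3 (105 CPM per kb) and Tgfbr2 (89.7 CPM per kb), and the lowest were those of Tgfb2 (8.89 CPM per kb), Tgfb1 (7.55 CPM per kb) and Ltbp1 (5.09 CPM per kb). In co-cultured CD26- NFs Ltbp2 still ranked highest at a mean of 195 CPM per kb, and Tgfb1 now followed it at 80.6 CPM per kb. Tumor cells alone were led by Ltbp3 (68.1 CPM per kb) and Ltbp1 (34.3 CPM per kb), with Ltbp2 next at 32.9 CPM per kb. The 2 tumor libraries of Ltbp1 (39.6 and 29.1 CPM per kb) and of Ltbp2 (29.3 and 36.5 CPM per kb) overlapped, so their order was within the spread.

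**Figure D1:**
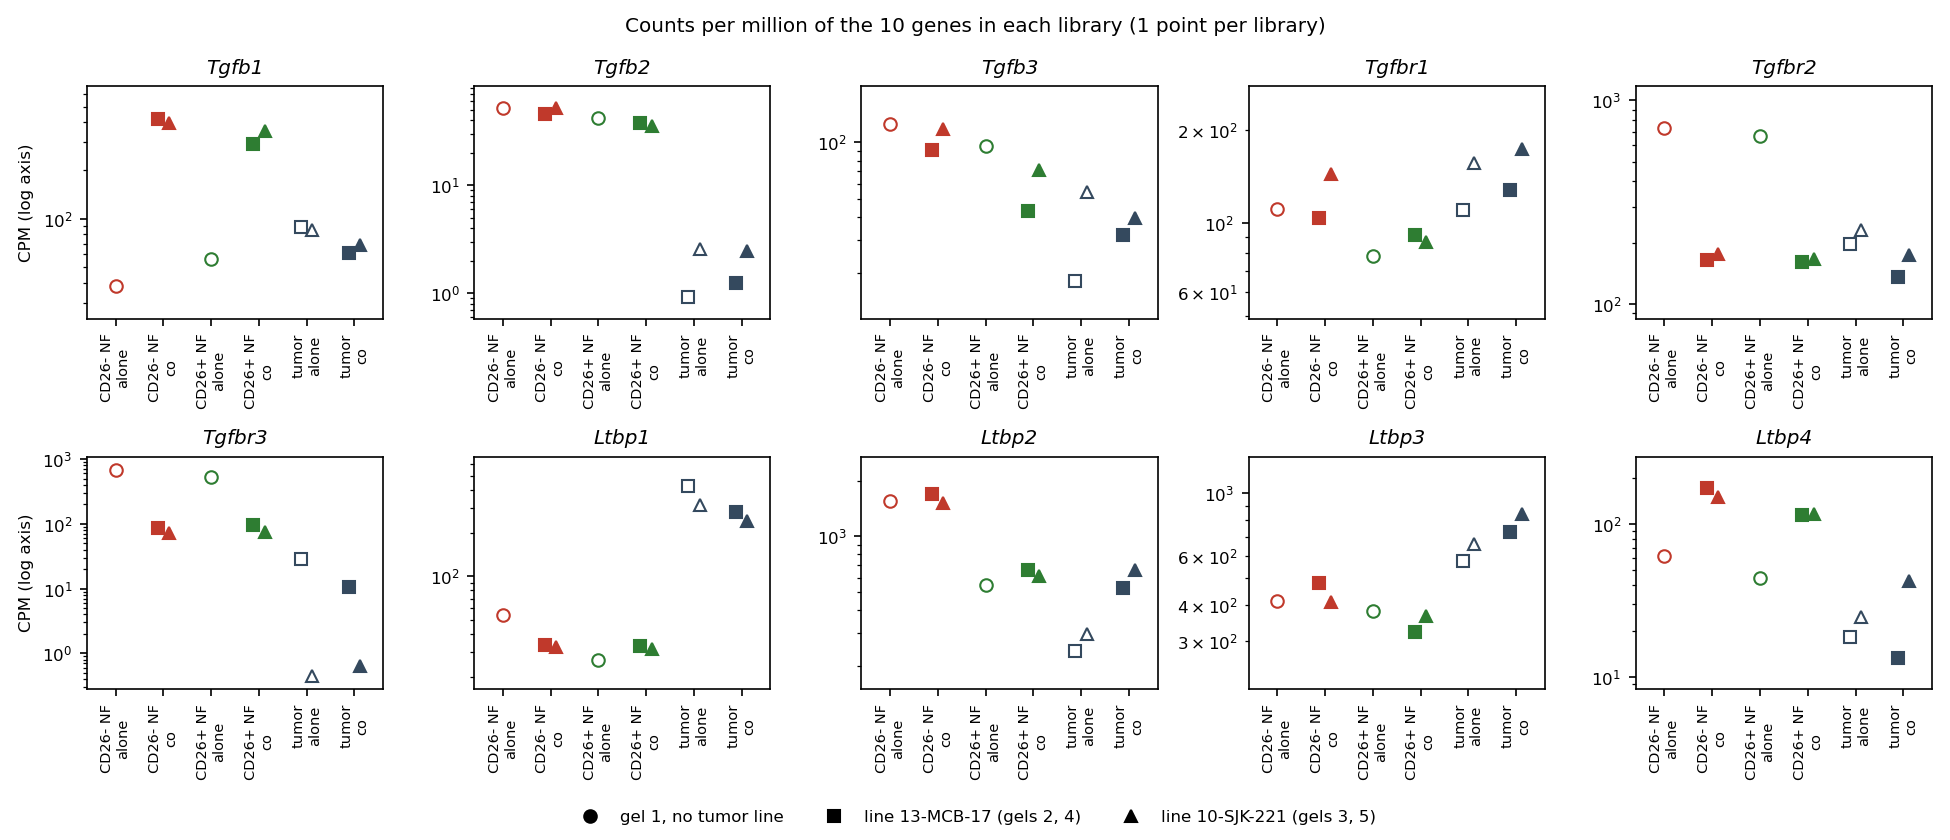
CPM of each of the 10 genes on a logarithmic axis, with 1 point per library, open symbols for cells grown alone and filled symbols for co-culture. The shape marks the gel or tumor line. Tgfb1 in co-cultured NFs lies between 291 and 419.8 CPM, above all other libraries, and Tgfbr2 and Tgfbr3 are highest in the NFs of gel 1.

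Promoter sequences are shown for genes whose levels changed together in co-cultured NFs, Tgfb1 and Ltbp4 upward and Tgfbr2 downward. They are the 250 bases before a RefSeq start site (GRCm38.p6), read 5′ to 3′ on the strand of the gene. Of the 10 genes, 8 had an entry, with 12 windows in all, while Tgfb3 and Tgfbr3 had none. The window of Ltbp4 belongs to its start site within the gene that overlaps no annotated exon. Capitals mark the letters GGGCGG, a GC box, and CAGAC, the core letters bound by SMAD proteins, searched on both strands.
Tgfb1, chr7:25686752-25687001 (+): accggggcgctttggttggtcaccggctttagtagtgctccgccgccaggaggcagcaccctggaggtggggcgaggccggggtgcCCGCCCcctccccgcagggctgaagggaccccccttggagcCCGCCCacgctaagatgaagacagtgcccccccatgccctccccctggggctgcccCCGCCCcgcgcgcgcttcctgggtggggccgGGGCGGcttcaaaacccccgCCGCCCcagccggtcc
Ltbp4, chr7:27333664-27333913 (-): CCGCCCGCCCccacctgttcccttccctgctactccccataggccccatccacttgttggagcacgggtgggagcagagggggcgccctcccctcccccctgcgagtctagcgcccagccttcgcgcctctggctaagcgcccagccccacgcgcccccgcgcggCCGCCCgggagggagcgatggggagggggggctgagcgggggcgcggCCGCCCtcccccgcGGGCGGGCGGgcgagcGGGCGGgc
Tgfbr2, chr9:116175364-116175613 (-): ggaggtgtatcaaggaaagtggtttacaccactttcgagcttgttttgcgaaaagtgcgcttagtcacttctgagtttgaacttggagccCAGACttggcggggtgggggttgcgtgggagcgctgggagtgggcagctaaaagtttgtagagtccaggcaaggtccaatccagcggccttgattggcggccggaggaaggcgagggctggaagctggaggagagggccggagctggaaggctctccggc

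The Tgfb1 window held 5 GC box matches and the Ltbp4 window shown 7, and neither held CAGAC. The other Ltbp4 windows held 3 (nearest the annotated start of the gene) and 5 GC box matches. The window with 5 overlaps most of the one shown, so the window counts below include that stretch more than once. The Tgfbr2 window held 1 CAGAC match and no GC box. Among the 12 windows, 6 (of 4 genes) held a GC box, which 32.7% of all 32851 promoter windows in the table also held. CAGAC was found in 7 windows of 6 genes and in 42.2% of all windows. The AP-1 letters TGACTCA were in none of the 12 windows and in 4.46% of all windows. These matches are descriptions of letters and not sites of binding.

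In co-cultured NFs the ligand Tgfb1 rose, the ligand-binding receptors Tgfbr2 and Tgfbr3 fell, and the latent binding protein Ltbp4 rose. These were the 4 of 10 genes called between co-cultured NFs and NFs alone over both subsets, 2 higher and 2 lower. Across all 15013 genes tested, 48.8% were called (25.9% higher and 22.9% lower), so the count is no higher than that of genes at large, and the sizes below carry the description. The median log2 fold change was -0.03 over the 10 genes and 0.02 over all genes. All 4 calls held under RLE scaling, library totals, no filter, DESeq2 and leaving out gel 4 or gel 5. The summed fibroblast markers were lower and the summed pericyte (206 to 554 CPM against 43.2 to 85.6 CPM), epithelial (118 to 319 CPM against 0.807 to 1.05 CPM) and immune markers (32.3 to 64.0 CPM against 5.59 to 10.04 CPM) higher in the same co-cultured NF libraries. Of the 5 pericyte markers Cspg4, Mcam and Notch3 were called higher, whereas Rgs5 was at 9.25 (CD26-) and 6.11 CPM (CD26+) in gel 1 and at 1.88 to 6.22 CPM in co-culture. Its log2 fold change was -1.05 (SE 0.42) and that of Kcnj8 0.59 (SE 0.57), neither called, while within CD26- NFs Rgs5 was called lower (-1.64, SE 0.47). The part of these markers in the results was not tested. The calls rest on 2 gels against 1, so culture and whatever set gel 1 apart cannot be told apart.

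Tgfb1 (ENSMUSG00000002603, chromosome 7, 25687002 to 25705077, 8 merged exon blocks) encodes the ligand best known from fibrosis and tumors. In gel 1 the CD26- subset had 38.1 CPM and the CD26+ subset 56.3 CPM. With tumor cells (gels 4 and 5) the CD26- subset had 419.8 and 393 CPM, and the CD26+ subset 291 and 352 CPM. Every co-cultured NF library was thus above both NF libraries of gel 1. The log2 fold change was 2.99 (SE 0.24, adjusted p = 1.04e-05 by edgeR), a 7.93-fold difference. Within the subsets it was 3.48 (SE 0.26) in CD26- NFs and 2.55 (SE 0.25) in CD26+ NFs. Tumor cells went the other way, from 89.0 and 84.5 CPM alone to 61.0 and 69.1 CPM in co-culture, with both co-cultured libraries below both libraries of tumor cells alone. Their log2 fold change was -0.44 (SE 0.11, adjusted p = 0.0208 by edgeR), a call that was lost with DESeq2 (adjusted p = 0.114), in the fit over all 10 libraries (adjusted p = 0.12), in the model without tumor line (adjusted p = 0.223) and when any tumor library was left out.

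The other ligands did not pass the threshold between co-cultured NFs and NFs alone. Tgfb2 (ENSMUSG00000039239, chromosome 1, 186622792 to 186705989) encodes a ligand that binds well only when betaglycan is present. Over gels 1, 4 and 5 the CD26- subset had 51.5, 45.5 and 52.0 CPM, and the CD26+ subset 42.1, 37.6 and 35.6 CPM. Tumor cells had 0.923 and 2.54 CPM without NFs and 1.24 and 2.45 CPM with them, far below every NF library. Tgfb3 (ENSMUSG00000021253, chromosome 12, 86056745 to 86079041), the third ligand, stood at 125, 91.4 and 119 CPM in the CD26- subset over gels 1, 4 and 5, and at 96.2, 43.2 and 70.9 CPM in the CD26+ subset. Its log2 fold change with co-culture was -0.46 (SE 0.22), and it was called only without gel 5 (-0.79, adjusted p = 0.0282 by edgeR). The tumor lines had 18.3 and 54.1 CPM without NFs and 32.1 and 39.6 CPM with them, so the co-cultured libraries lay between those of tumor cells alone. Exons of Tgfb3 overlap those of other genes over 12.4% of their length, those of Tgfb2 over 2.14%.

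The makeup of the ligands per exon length turned over between the cultures. Tgfb3 supplied 69.2% and 60.7% of the ligand sum in CD26- and CD26+ NFs of gel 1, and Tgfb1 supplied 14.1% and 23.8%. In the 4 co-cultured NF libraries Tgfb1 supplied 63.9% to 75.0% and Tgfb3 16.6% to 28.7%. The ligand sum itself was 53.4 and 46.9 CPM per kb in NFs alone and 76.9 to 122 CPM per kb in co-cultured NFs. In the 4 tumor libraries it was 21.8 to 33.2 CPM per kb, with Tgfb1 at 50.5% to 76.0% of it.

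**Figure D2:**
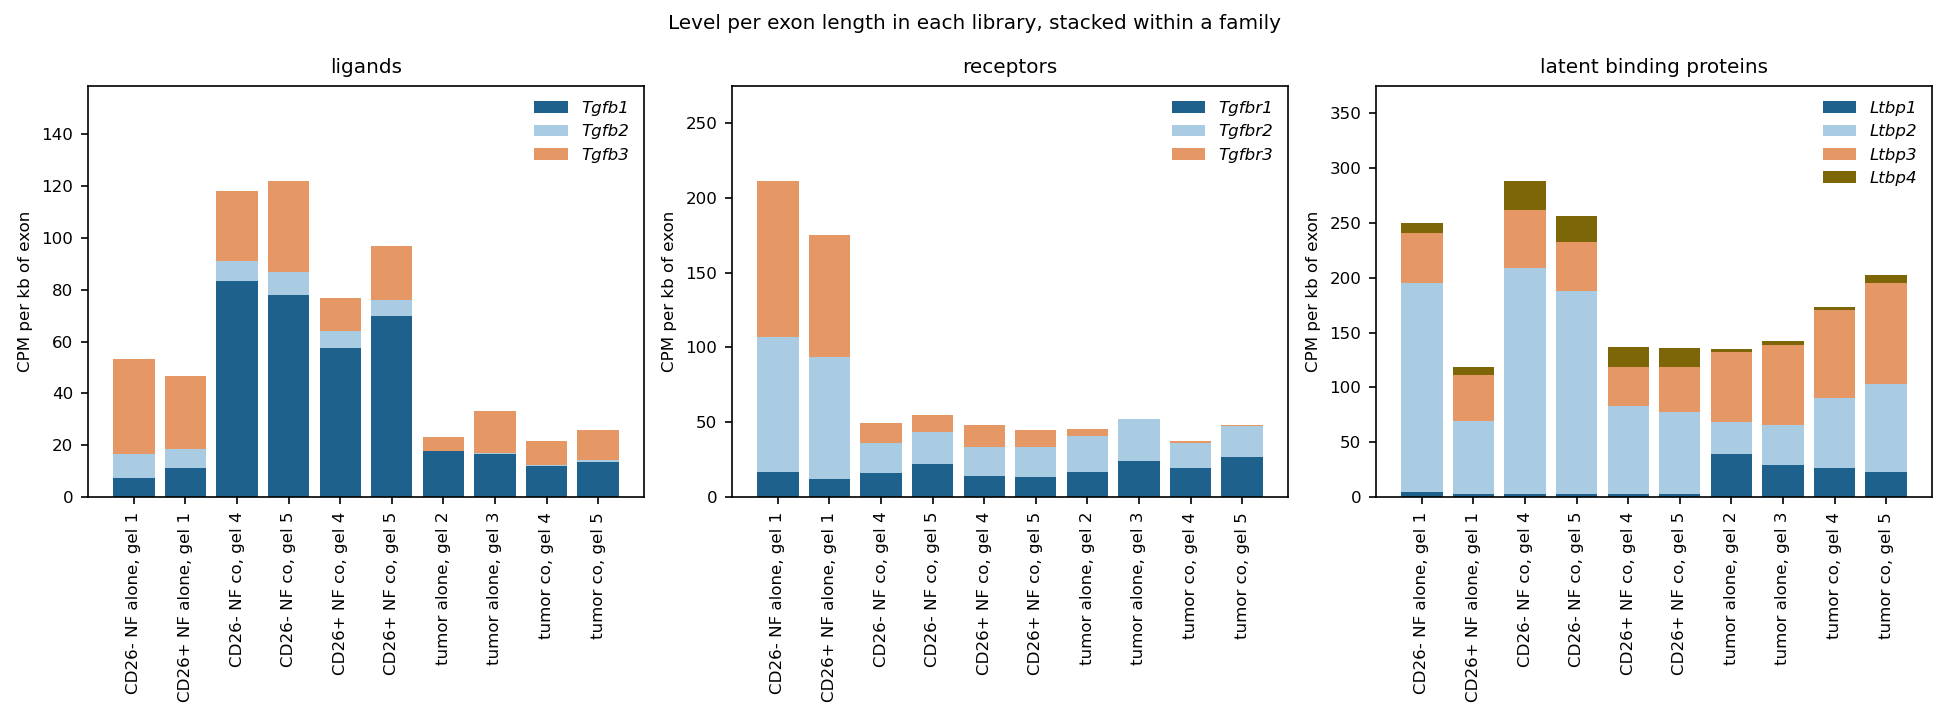
CPM per kb of exon in each library, stacked within the ligands, the receptors and the latent binding proteins. Co-cultured NFs have taller ligand bars made mostly of Tgfb1 (63.9% to 75.0%) and receptor bars of 45.1 to 54.6 CPM per kb against 175 and 211 CPM per kb in the NFs of gel 1.

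Tgfbr2 (ENSMUSG00000032440, chromosome 9, 116084293 to 116175360) encodes the type II receptor kinase, which binds ligand first. In gel 1 the CD26- subset had 735 CPM and the CD26+ subset 670.1 CPM. With tumor cells the CD26- subset had 165 and 176 CPM and the CD26+ subset 162 and 166 CPM, so the groups were far apart and the co-cultured libraries close to each other. The log2 fold change was -2.02 (SE 0.12, adjusted p = 2.06e-06 by edgeR), a 4.06-fold lower level. Tumor cells had 198 and 229.7 CPM alone and 135 and 174 CPM in co-culture, a log2 fold change of -0.50 (SE 0.10, adjusted p = 0.0108 by edgeR). That call was lost in the fit over all 10 libraries (adjusted p = 0.0536), in the model without tumor line (adjusted p = 0.239) and when any tumor library was left out.

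Tgfbr3 (ENSMUSG00000029287, chromosome 5, 107106570 to 107289629) encodes betaglycan, a coreceptor that presents ligand to the type II receptor. In gel 1 the CD26- subset had 684 CPM and the CD26+ subset 532 CPM. With tumor cells the CD26- subset had 87.0 and 73.1 CPM and the CD26+ subset 95.1 and 75.8 CPM. All co-cultured libraries were below both libraries of gel 1, with a log2 fold change of -2.83 (SE 0.15, adjusted p = 9.66e-07 by edgeR), a 7.09-fold lower level. Tumor lines differed sharply in Tgfbr3: 13-MCB-17 cells had 28.5 CPM alone and 10.4 CPM in co-culture, and 10-SJK-221 cells 0.445 and 0.627 CPM. In counts these were 525 and 184 against 7 and 11. The line difference was -5.11 on the log2 scale (10-SJK-221 minus 13-MCB-17, SE 0.38, adjusted p = 0.000136 by edgeR). The fitted fall in co-cultured tumor cells, -1.21 (SE 0.33, adjusted p = 0.0325 by edgeR), was lost with RLE scaling (adjusted p = 0.0517) and DESeq2 (adjusted p = 0.304), and turned to 0.48 without either 13-MCB-17 library.

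Tgfbr1 (ENSMUSG00000007613, chromosome 4, 47353222 to 47414931) encodes the type I receptor kinase that phosphorylates SMAD2 and SMAD3. Over gels 1, 4 and 5 the CD26- subset had 111, 104 and 144 CPM and the CD26+ subset 78.6, 91.4 and 86.8 CPM. Tumor cells had 111 and 157 CPM without NFs and 128 and 173 CPM with them. Its libraries overlapped across cultures in both cell types, and its log2 fold change with co-culture was 0.22 (SE 0.16) in NFs and 0.15 (SE 0.10) in tumor cells. Per exon length its share of the 3 receptors was 8.03% and 6.87% in CD26- and CD26+ NFs of gel 1 and 29.0% to 40.3% in co-cultured NFs.

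Ltbp4 (ENSMUSG00000040488, chromosome 7, 27305136 to 27337692) encodes a binding protein known for its part in elastic fiber assembly. In gel 1 the CD26- subset had 61.8 CPM and the CD26+ subset 44.1 CPM. With tumor cells the CD26- subset had 172 and 151 CPM and the CD26+ subset 114 and 116 CPM, all above gel 1. The log2 fold change was 1.43 (SE 0.13, adjusted p = 1.97e-05 by edgeR), a 2.70-fold higher level, and was the only called change of the 4 that did not also exceed 2 in size. Tumor cells (13-MCB-17, then 10-SJK-221) had 18.4 and 24.7 CPM without NFs and 13.3 and 42.6 CPM with them, so the lines moved in opposite directions.

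Ltbp1 (ENSMUSG00000001870, chromosome 17, 75005568 to 75392512), the founding binding protein of latent TGF-beta1, was higher in tumor cells but was also found in NFs grown alone. Tumor cells had 423 and 311 CPM without NFs and 281 and 240.6 CPM with them. The log2 fold change was -0.51 (SE 0.11, adjusted p = 0.0152 by edgeR), and its call was lost when any tumor library was left out. In gel 1 the CD26- subset had 54.4 CPM and the CD26+ subset 26.4 CPM, and with tumor cells the CD26- subset had 33.6 and 32.3 CPM and the CD26+ subset 32.8 and 31.3 CPM. The subsets thus differed in gel 1 and were nearly equal in co-culture. In CD26- NFs the log2 fold change with co-culture, against the 1 library of gel 1 and with the spread of the co-cultured NF groups, was -0.66 (SE 0.20, adjusted p = 0.0224 by edgeR). This call was lost without either co-cultured CD26- library and with DESeq2. The median epithelial marker in co-cultured NFs was at 1.94% to 5.03% of its level in the tumor cells of the same gel. RNA at that share would carry 5.45 and 5.04 CPM of Ltbp1 in the CD26- libraries of gels 4 and 5. In the CD26+ libraries it would carry 7.29 and 12.1 CPM, more than their rise over gel 1, and its part was not tested. For Tgfb1 and Ltbp4 the same share would carry at most 3.48 and 2.14 CPM.

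Ltbp2 (ENSMUSG00000002020, chromosome 12, 84783212 to 84876532), which unlike the other members is not thought to bind latent TGF-beta, had the highest CPM of the set in every NF library except the CD26+ NFs of gel 1, where Tgfbr2 was higher. Over gels 1, 4 and 5 the CD26- subset had 1554, 1685 and 1510.5 CPM and the CD26+ subset 549, 657 and 615 CPM, so the subsets did not overlap. Its log2 fold change with co-culture in NFs was 0.17 (SE 0.14, adjusted p = 0.337 by edgeR). Tumor cells had 239.5 and 299 CPM without NFs and 526 and 657 CPM with them. It was the only one of the 10 genes called higher in co-cultured tumor cells, with a log2 fold change of 1.11 (SE 0.11, adjusted p = 0.000408 by edgeR). The call held in every alternative except the model without tumor line (adjusted p = 0.105) and the added criterion of a log2 fold change above 2 in size. Fibroblast markers in co-cultured tumor cells had a median of 0.109% and 0.13% of their level in the NFs of gels 4 and 5, and RNA at that share would carry 1.27 and 1.38 CPM of Ltbp2 against rises of 286 and 358 CPM. Exons of Ltbp2 overlap those of another gene over 9.34% of their length, those of Tgfbr3 over 4.54% and those of Ltbp3 over 2.01%.

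Ltbp3 (ENSMUSG00000024940, chromosome 19, 5740904 to 5758532), another binding protein of latent TGF-beta, had 413, 478 and 412 CPM in the CD26- subset and 382, 323 and 367 CPM in the CD26+ subset (gels 1, 4 and 5), where co-culture gave a log2 fold change of 0.02 (SE 0.14). Tumor cells had 573 and 662 CPM without NFs and 729.8 and 842 CPM with them, above all NF libraries. Its log2 fold change in co-cultured tumor cells was 0.32 (SE 0.12, adjusted p = 0.0849 by edgeR). Per exon length Ltbp3 supplied 45.9% to 51.3% of the latent binding protein sum in tumor cells, while Ltbp2 supplied 55.1% to 75.9% in NFs. The share of Ltbp2 in tumor cells was 21.7% and 25.6% alone and 37.1% and 39.7% in co-culture, and that of Ltbp1 went from 29.3% and 20.4% to 15.2% and 11.1%.

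In the tumor cells 5 of the 10 genes were called between co-culture and culture alone, Ltbp2 higher and Tgfb1, Tgfbr2, Tgfbr3 and Ltbp1 lower. Of 13197 genes tested, 22.3% were called (10.8% higher, 11.5% lower). The summed immune markers were also lower in co-cultured tumor cells, through Cd68 (299 and 93.1 CPM alone, 80.5 and 34.8 CPM in co-culture). Csf1r was higher (1.79 and 7.25 CPM alone, 11.6 and 12.9 CPM in co-culture), and so was Itgam, at no more than 0.622 CPM. The part of these markers in the falls was not tested. Between the lines 4 of 10 genes were called, beside 14.5% of all genes: Tgfbr3 and Ltbp1 (-0.41, SE 0.11) were lower and Tgfbr1 (0.40, SE 0.10) and Ltbp4 (0.98, SE 0.26) higher in 10-SJK-221 cells. By line only the Tgfbr3 call held when any tumor library was left out. Those of Tgfbr1 and Ltbp1 were lost each time and with DESeq2 (adjusted p = 0.144 and 0.0997), and Ltbp4 moved to 0.35 (adjusted p = 0.74) without either co-cultured tumor library. Tumor libraries were left out in the fit over all 10 libraries, not in the fit of the 4 tumor libraries that made the calls. With nothing left out, that fit had already lost the calls of Tgfb1 and Tgfbr2 by culture and of Tgfbr1 and Ltbp1 by line. Without a library of 1 line, the fold change by culture is that of the other line alone. The model without line gave no call by culture.

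Within the subsets, co-culture called 5 genes in CD26- NFs and 4 in CD26+ NFs, beside 30.8% and 34.2% of the 16231 genes tested. In each subset the arm without tumor cells is 1 library, whose spread is taken from the co-cultured NF groups, so these calls assume that it varies as they do. The 4 genes called over both subsets were called in each, and Ltbp1 was added in CD26- NFs. The subsets shared gels, and the difference between their responses was itself tested. None of the 10 genes passed that test in edgeR or DESeq2, beside 0.376% of all genes, and 2 had an unadjusted p under 0.05. They were Ltbp1, whose response was higher in CD26+ NFs by 0.97 (SE 0.29), and Tgfb1, whose response was lower in CD26+ NFs (-0.93, SE 0.31). Ltbp1 in CD26+ NFs was at 26.4 CPM in gel 1 and at 32.8 and 31.3 CPM in gels 4 and 5. RNA at the share of epithelial markers would carry 7.29 and 12.1 CPM of it in gels 4 and 5, and its part was not tested.

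NFs and tumor cells were also compared with each other, because latent complexes secreted by either cell could meet receptors on the other. Grown alone, 9 of 10 genes were called (55.5% of all 17048 genes tested), 6 higher and 3 lower in NFs. In the shared gels 8 of 10 were called (51.8% of all genes, 27.7% higher and 24.2% lower in NFs), 6 higher and 2 lower. In shared gels the log2 differences, NFs minus tumor cells, were 4.71 (SE 0.40) for Tgfb2, 4.09 (SE 1.36) for Tgfbr3, 2.68 (SE 0.16) for Tgfb1, 2.49 (SE 0.41) for Ltbp4, 1.32 (SE 0.41) for Tgfb3 and 0.97 (SE 0.16) for Ltbp2. The Tgfbr3 call was lost without any co-cultured NF library or the tumor cells of gel 5 (3.17 to 4.15, adjusted p = 0.0687 to 0.111 by edgeR). The Tgfb3 call was lost without any library of gel 5 or the tumor cells of gel 4 (1.10 to 1.46, adjusted p = 0.0678 to 0.109 by edgeR). Tumor cells were higher for Ltbp1 (-2.81, SE 0.16) and Ltbp3 (-0.80, SE 0.14). Tgfb1 changed sides between cultures, being lower in NFs than in tumor cells when both grew alone (-0.78, SE 0.17, adjusted p = 0.00443 by edgeR) and higher in shared gels. The call in cells grown alone was lost without the CD26- NFs of gel 1 (-0.55, adjusted p = 0.0532 by edgeR). Tgfbr2 was higher in NFs grown alone (1.85, SE 0.17) and did not pass the threshold in shared gels (0.31, SE 0.15, adjusted p = 0.102 by edgeR), although DESeq2 called it (0.38, adjusted p = 0.0418).

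A test of the difference between the responses of NFs and tumor cells, added after the values were seen, called 3 of 10 genes (20.2% of all genes). The NF response exceeded that of tumor cells for Tgfb1 by 3.45 (SE 0.23, adjusted p = 0.000111 by edgeR). It was below that of tumor cells for Tgfbr2 (-1.53, SE 0.22, adjusted p = 0.00243 by edgeR) and for Ltbp2 (-0.95, SE 0.23, adjusted p = 0.022 by edgeR). The Ltbp2 call was lost without the CD26- NFs of gel 1 (-0.14), the tumor cells of gel 2 (-0.83) or gel 5 (-0.80), or the CD26- NFs of gel 4 (-0.97) or gel 5 (-0.95).

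**Figure D3:**
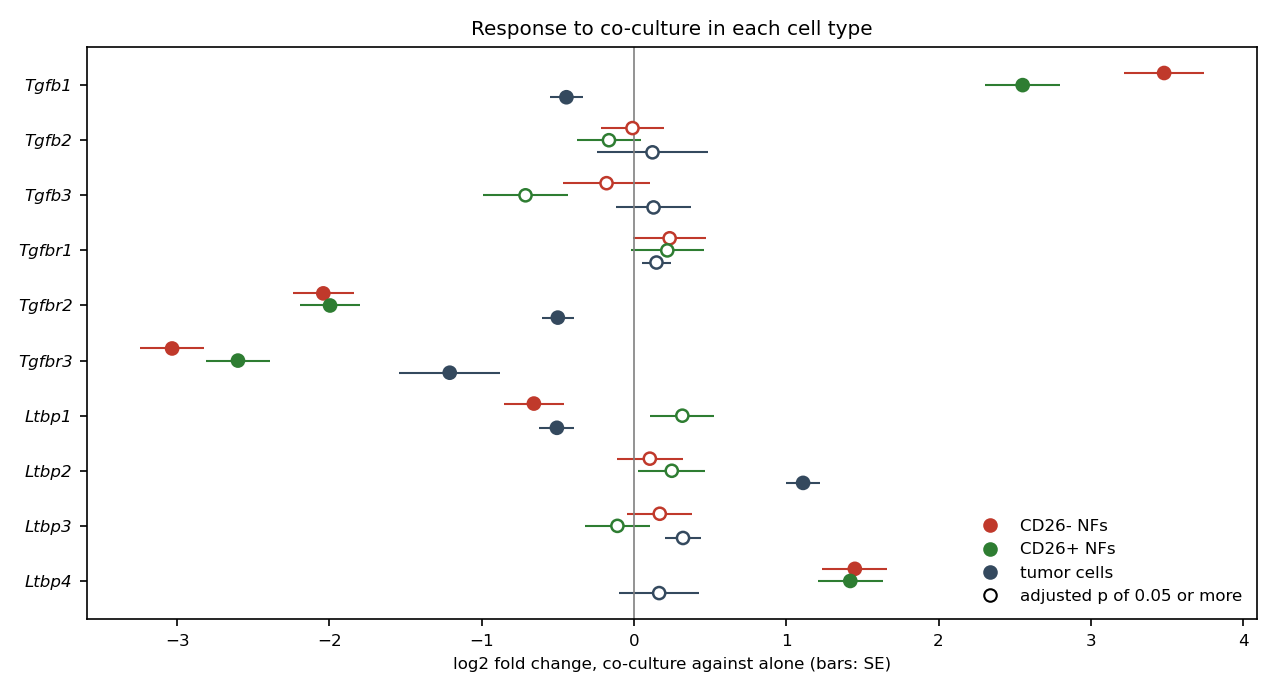
Log2 fold change of each gene between co-culture and culture alone in CD26- NFs, CD26+ NFs and tumor cells, with bars for the SE and filled points for calls. Tgfb1 lies at 3.48 and 2.55 in the NF subsets and at -0.44 in tumor cells, and Tgfbr3 lies at -3.03 and -2.60 in the NF subsets.

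Between the NF subsets the called differences all pointed to lower levels in CD26+ NFs. Over the 3 gels 5 of 10 genes were called, all lower in CD26+ NFs, beside 7.53% of all genes (3.93% higher and 3.6% lower). Ltbp2 had a log2 difference, CD26+ minus CD26-, of -1.54 (SE 0.13, adjusted p = 0.00106 by edgeR), Tgfb3 of -0.87 (SE 0.21), Ltbp4 of -0.65 (SE 0.11), Tgfbr1 of -0.64 (SE 0.15) and Tgfb2 of -0.53 (SE 0.13). By CPM the 5 called genes were lower in CD26+ NFs in all 3 gels. Of the others, Tgfbr2, Ltbp1 and Ltbp3 were too. Tgfbr2 and Ltbp1 were near ties in gels 4 and 5, at CD26+ to CD26- ratios of 0.943 to 0.978 and 0.966 to 0.978. Tgfb1 was higher in CD26+ NFs in gel 1 only, and Tgfbr3 was lower in gel 1 only. The share of all genes lower in all 3 gels was not computed. All 5 calls were lost without gel 5, where Ltbp2 had -1.56 (adjusted p = 0.0521 by edgeR), Tgfb3 -0.86, Ltbp4 -0.67, Tgfbr1 -0.47 and Tgfb2 -0.41 from 4 libraries. The calls of Tgfb2 and Tgfbr1 were also lost without gel 1, where their log2 differences were -0.58 and -0.65. Scaling by library totals moved the median of all genes by 0.15 here, by 0.17 within co-culture and, for NFs minus tumor cells, by -0.12 alone and -0.19 in shared gels. With it 3 genes were called over the 3 gels (Ltbp2, Tgfb3 and Ltbp4) and 2 within co-culture (Ltbp2 and Tgfb3).

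Within co-culture 3 genes were called, Ltbp2 (-1.50, SE 0.18), Tgfb3 (-1.06, SE 0.24) and Ltbp4 (-0.66, SE 0.16), beside 6.01% of all genes. With the gel as a replicate block 7 were called, adding Tgfb1 (-0.51), Tgfb2 (-0.57), Tgfbr1 (-0.62) and Ltbp3 (-0.53), all lower in CD26+ NFs, and the share of all genes called rose to 16.7%. The summed fibroblast markers were also lower in the CD26+ subset of gels 4 and 5 (23317 and 29343 CPM against 37998 and 41536 CPM), with 4 of 8 called lower within co-culture. The pericyte sum was lower there too (206 and 263 CPM against 385 and 554 CPM) and the epithelial sum higher (173 and 319 CPM against 118 and 145 CPM). The lower pericyte sum was that of Cspg4, Mcam and Notch3, all called lower. Kcnj8 was called higher in CD26+ NFs (31 against 10 counts in gel 4 and 55 against 5 in gel 5), and Rgs5 had 46 against 31 and 88 against 65 counts there and was not called. The part of these markers in the result was not tested. No gene was called without either co-cultured CD26+ library, and 1 or 2 without a CD26- library. For Tgfbr2 the log2 difference was -0.23 (SE 0.17) and for Tgfbr3 -0.08 (SE 0.18), neither of which passed the threshold.

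**Figure D4:**
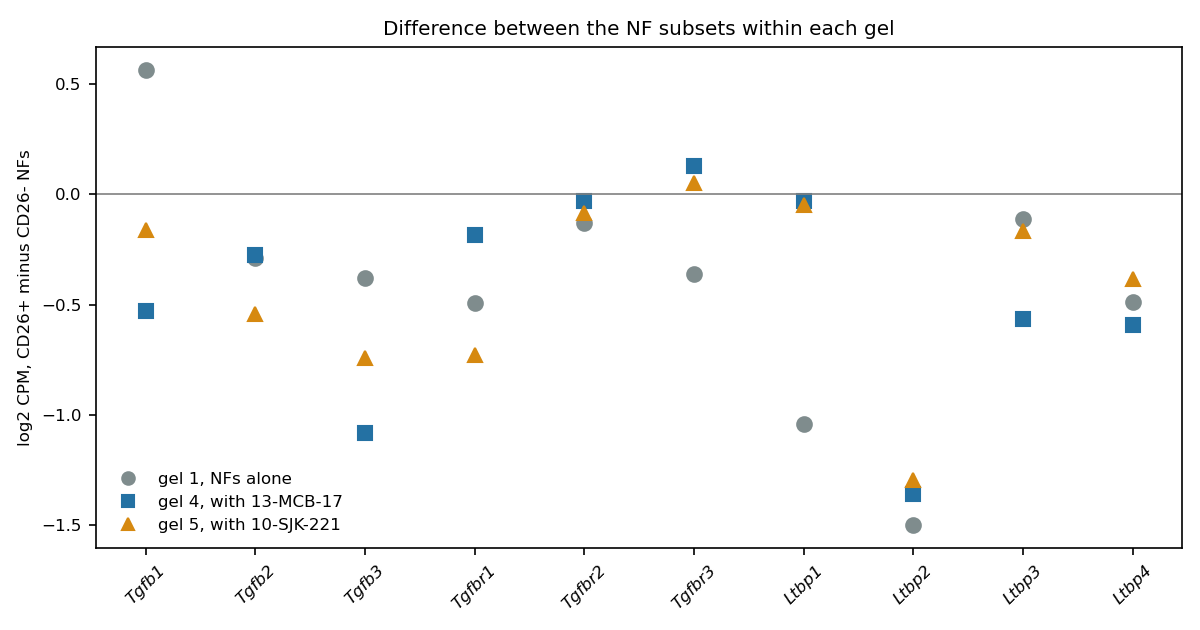
Log2 ratio of CPM, CD26+ minus CD26- NFs, for each gene in gels 1, 4 and 5. Ltbp2 lies between -1.50 and -1.30 in all 3 gels, and Tgfb1 is the only gene above 0 in gel 1.

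Genes that store, tether or release latent TGF-beta moved unevenly. Of 15 such genes, chosen by role with earlier results of these data known, 14 were tested in NFs, and 7 rose and 4 fell in co-cultured NFs (median log2 fold change 0.50), beside 48.8% of all genes called (25.9% higher and 22.9% lower). Mmp9, a secreted gelatinase, rose by 8.36 (SE 0.26) and Itgb3, the beta3 chain of an integrin that binds latent TGF-beta, by 5.04 (SE 0.20). Itgb6, the chain of another activating integrin, also rose, from 0 counts in gel 1 to 0.919 to 2.18 CPM. Against 3 counts in the library of the same subset in gel 1, the lowest co-cultured library was at least 6.83-fold higher in the CD26- and at least 4.37-fold higher in the CD26+ subset, while the tumor cells of the same gels had 13.6 and 10.9 CPM. The share of epithelial markers in those NF libraries moved with it, and their part in the result was not tested. The median over all genes was 0.02. Fbn2, a microfibril protein, fell most (-3.19, SE 0.17), followed by Fbn1 (-0.94, SE 0.20), the microfibril to which latent binding proteins attach. In co-cultured tumor cells 7 of 12 tested genes rose and none fell, beside 10.8% of all genes higher and 11.5% lower. Fewer were called when any tumor library was left out. Itgb3 (3.33, SE 0.14) rose most. Fbn1 passed the filter through co-culture, at 5 and 4 counts in tumor cells alone and 35 and 56 counts with NFs. Its fitted rise (3.20, SE 0.49) thus rests on few counts in cells grown alone. Fbn1 reached 1.98 and 3.19 CPM there, of which RNA at the share of fibroblast markers would carry 1.42 and 2.22 CPM. For Itgb3, at 158 and 126 CPM, it would carry 0.511 and 0.506 CPM.

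SMADs and their regulators split in NFs. Of 15 genes, 5 rose and 6 fell in co-cultured NFs (median -0.16, beside 48.8% of all genes called), among them the inhibitory Smad6 (-2.25, SE 0.19) and the decoy receptor Bambi (-1.29, SE 0.17) downward and the shared partner Smad4 (0.78, SE 0.13) and the corepressor Skil (0.78, SE 0.15) upward. In co-cultured tumor cells 6 of 14 rose and 3 fell (median 0.17, beside 22.3% of all genes called), led by Pmepa1 (2.23, SE 0.19), a TGF-beta induced inhibitor of the pathway. Tgif2 rose by 1.07 (SE 0.29), and Smurf1 (-0.56, SE 0.12) and Smad3 (-0.44, SE 0.10) fell most. When any tumor library was left out the count went from 9 to between 1 and 3, all higher. Of 5 related receptors, 1 rose and 1 fell in co-cultured NFs (Acvrl1, 0.46, SE 0.16, and Eng, -0.61, SE 0.17), and 3 rose in co-cultured tumor cells. The Acvrl1 call in NFs was lost without gel 5, without the filter and with library totals. Acvrl1 reached no more than 3.59 CPM and Eng no more than 10.7 CPM in tumor cells.

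Of 11 textbook TGF-beta response genes, most were called lower in CD26+ than in CD26- NFs within co-culture. There 9 of 11 were called lower and none higher (median -1.30), the lowest being Tagln (-1.78, SE 0.24) and Acta2 (-1.54, SE 0.29), both of the contractile apparatus. Over the 3 gels 6 of 11 were called lower (median -0.96), beside 7.53% of all genes, and in gel 1 Tgfbi (488 against 406 CPM) and Postn (1885 against 1792 CPM) were higher in the CD26+ subset, an exception named after the values were seen. The median over all genes was 0.01 and 0.00 in these comparisons. All 11 genes had a negative fitted difference in every alternative run for both comparisons, but none stayed called without gel 5 or without either co-cultured CD26+ library. With the replicate block all 11 were called within co-culture, where it also raised the share of all genes called from 6.01% to 16.7%. It raised the calls within co-culture from 3 to 7 for activation genes and from 1 to 7 for SMADs and regulators, whereas without the block both counts went to 0 when either co-cultured CD26+ library was left out. When a co-cultured CD26- library was left out, 1 activation gene was called and at most 1 of the SMADs and regulators. The summed pericyte markers were also lower in the CD26+ subset of gels 4 and 5 and higher in gel 1 (85.6 against 43.2 CPM), except that Rgs5 and Kcnj8 were higher in the CD26+ subset of gels 4 and 5 and Rgs5 lower in that of gel 1. The summed fibroblast markers, which share Col1a1 with this list, were lower in the CD26+ subset of each of the 3 gels, and the part of either marker list in the result was not tested.

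Against NFs alone, the response genes of co-cultured NFs split into 3 higher and 6 lower (median -0.64), beside 48.8% of all genes called. In the same libraries 4 of 8 fibroblast markers, Col1a1 of this list among them, were called lower and 2 higher, and 3 of 5 pericyte markers were called higher and none lower. The part of these markers was not tested. Il11 (4.84, SE 0.25), a cytokine, rose most, and Adam12 (-3.17, SE 0.17) and Tgfbi (-3.07, SE 0.25), a matrix adhesion protein, fell most. Genes of the same list thus moved in opposite directions in the same libraries. In co-cultured tumor cells 5 of 9 tested genes rose and none fell (median 1.26, beside 22.3% of all genes called), and 4 or 5 were called when any tumor library was left out. The model without line called none of any of the 4 lists. Col1a1 rose by 4.48 (SE 0.21), yet it is itself a fibroblast marker. Postn had the highest fitted rise (6.19, SE 0.37), but only 3 and 9 counts in tumor cells alone against 554 and 393 in co-culture. It passed the filter through co-culture, so the size of its rise is uncertain. Postn reached 31.3 and 22.4 CPM there and Col1a1 89.1 and 28.1 CPM, of which RNA at the median share of fibroblast markers would carry 3.61 and 5.55 CPM and 12.1 and 15.1 CPM.

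**Figure D5:**
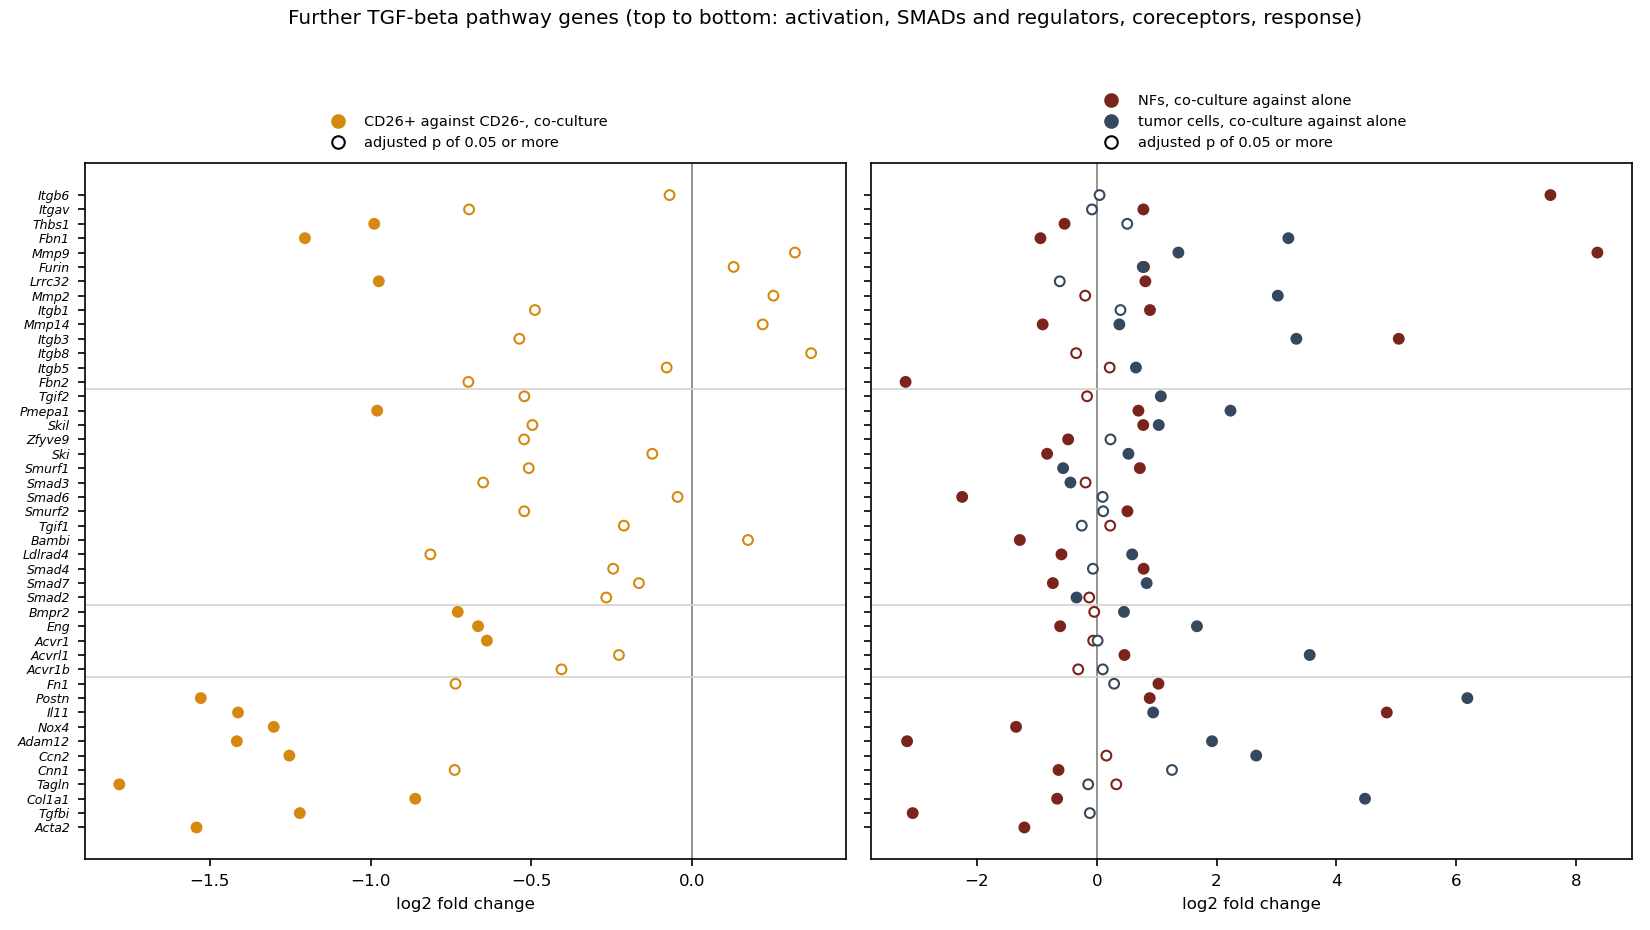
Log2 fold change of each tested gene of the 4 further lists, within co-culture between CD26+ and CD26- NFs (left) and between co-culture and culture alone in NFs and tumor cells (right), with filled points for calls. On the left the 11 response genes, at the bottom, all lie below 0. On the right Mmp9 (8.36) and Itgb3 (5.04) lie far above 0 in NFs and Adam12 (-3.17), Fbn2 (-3.19) and Tgfbi (-3.07) far below.

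For 9 of the 10 genes, the gene with the most similar pattern over the 10 libraries was found by Pearson's r of log2(CPM + 1) among genes with a mean of at least 1 CPM. It was P2ry2 for Tgfb1 (r = 0.999), Hhat for Tgfb2 (0.998), Mmab for Tgfb3 (0.973), Ubxn2a for Tgfbr1 (0.943) and F3 for Tgfbr2 (0.984). It was Wdfy2 for Tgfbr3 (r = 0.987), Tram2 for Ltbp2 (0.967), Psip1 for Ltbp3 (0.966) and Fstl3 for Ltbp4 (0.975). The 10 libraries fall into tumor cells, NFs alone and co-cultured NFs, so genes that follow those groups have a high r with each other.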

How the data were processed

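RNA was sequenced from 10 sorted libraries in 6 groups. The authors deposited 1 table of raw read counts per gene and library, not normalized. The submitters' processing notes name HISAT2 2.2.1 and GRCm38. The labels describe stranded libraries and paired-end reads. How reads were counted, whether by strand, and against which annotation is not given in the sources used here, so counts of overlapping genes are uncertain. Of 55486 gene IDs, 55140 (99.38%) were in GENCODE M21, and 99.35% of these had the same coordinates. The table has 1 row that names no gene, with 0 counts, which was dropped. A second floxed gene of the tumor genotype, a gene of the response list and the likeness of Ltbp1 are not reported here.

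The quasi-likelihood F test of edgeR 4.0.16 (R 4.3.3) was run on these counts after filterByExpr and with TMM scaling, and p was adjusted by Benjamini-Hochberg over all genes (threshold 0.05). Comparisons of the NF subsets over 3 gels and of co-cultured NFs with NFs alone used 6 NF libraries with subset and culture as terms. Comparisons within a subset or culture used 4 groups of these. Tumor cells were fitted with culture and line, and NFs against tumor cells over all 10 libraries in 6 groups. Alternatives were RLE scaling, no filter, DESeq2 1.42.0, an added absolute log2 fold change above 2, leaving out libraries, a replicate block, other tumor models and, added after values were seen, library totals. The contrast of the NF and tumor cell responses was also added then. For comparisons of tumor cells by culture or line, libraries were left out in the fit over all 10 libraries. The fits were run on simulated counts with the same spread for every gene and no gel effects. That run checks the code and does not bear on the calls. Members and lists were chosen with earlier results of these data known. All members were described whatever their p, and of each list at most 2 called genes each way.

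Libraries of 1 gel share a number, and the labels state that the cells of a number shared a gel. Between gels 5 and 4 their deviations correlated with r = 0.22 (CD26- and CD26+ NFs), 0.22 (CD26- NFs and tumor cells) and 0.073 (CD26+ NFs and tumor cells) over 8474 genes. Replicate libraries differed by far more than counting noise (mean squared z of 22.5 to 74.1), so none was a duplicate. Floors cover counting error only. Nothing states that gels came from separate sorts, so p-values measure the spread between these libraries, which may be technical.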

Additional observations from a re-analysis of the deposited data

Results flagged for a closer look

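The responses to co-culture differed between NFs and tumor cells for 3 genes, as tested by the contrast of the responses in edgeR. The NF response minus the tumor cell response was 3.45 (log2) for Tgfb1, -1.53 for Tgfbr2 and -0.95 for Ltbp2. For Tgfb1 all 4 co-cultured NF libraries were above the NFs of gel 1, and both tumor lines were lower in co-culture. For Tgfbr2 both cell types were lower in co-culture, NFs by more. For Ltbp2 both tumor lines were higher in co-culture (1.13 and 1.14 on the log2 scale of CPM), and the call depended on several single libraries, the CD26- NFs of gel 1 most.

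The tumor lines moved in opposite directions with co-culture for 4 genes, a difference that was not tested because each line had 1 library per culture. For Tgfb2 the log2 ratio of CPM (after adding 0.1), co-culture minus alone, was 0.39 in 13-MCB-17 and -0.051 in 10-SJK-221 cells, on 17 to 43 counts per library. It was 0.81 and -0.45 for Tgfb3, and -0.46 and 0.78 for Ltbp4. It was -1.45 and 0.42 for Tgfbr3, where the 10-SJK-221 libraries held 7 and 11 counts.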

How the results depend on the processing

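Of 1000 recomputed log2 fold changes of the 10 genes, 858 kept their direction and their side of the threshold, 84 lost a call, 21 gained one and 37 changed sign. Of these, 2 were of a called gene, Tgfbr3 in co-cultured tumor cells, at 0.48 without the 13-MCB-17 library of either culture (range -1.50 to 0.48 over the left-out libraries). The other 35 were of genes not called as reported, and none was called after the change. With library totals, Ltbp3 was at -0.023 in co-cultured NFs, Tgfbr3 at 0.096 between the subsets within co-culture, Tgfbr1 at 0.020 for the difference in response between the subsets (0.010 with the replicate block) and Tgfb1 at 0.050 between the tumor lines. Without line in the model Tgfb3 was at -0.021 in co-cultured tumor cells. Over the left-out libraries, log2 fold changes that changed sign ran from -0.50 to 0.043 for Tgfb1 between the subsets over 3 gels, from -0.0082 to 0.049 for Ltbp3 in co-cultured NFs and from -0.22 to 0.034 for Tgfbr3 between the subsets within co-culture. In CD26- NFs by culture they ran from -0.15 to 0.12 for Tgfb2, -0.43 to 0.033 for Tgfb3 and -0.069 to 0.49 for Tgfbr1, and for the difference in response between the subsets from -0.27 to 0.29 for Tgfbr1, -0.042 to 0.13 for Tgfbr2 and -0.11 to 0.021 for Ltbp4. In tumor cells by culture they ran from -0.056 to 0.39 for Tgfb2, -0.45 to 0.77 for Tgfb3 and -0.51 to 0.78 for Ltbp4, and by line from -0.15 to 0.15 for Tgfb1. For the difference between cell types they ran from -1.03 to 0.35 for Tgfb2, -1.36 to 0.13 for Tgfb3, -0.28 to 0.38 for Tgfbr1, -6.46 to 1.77 for Tgfbr3 and -0.28 to 0.93 for Ltbp1. The number of genes called between co-cultured NFs and NFs alone (4) and between NFs and tumor cells (9 alone, 8 in shared gels) moved by over 1.5 times only with the added log2 fold change criterion for the latter, to 3 and 5. That criterion also left 0 calls between the subsets over 3 gels (of 5) and within co-culture (of 3), 3 in CD26- NFs (of 5), 2 in CD26+ NFs (of 4), 0 in tumor cells by culture (of 5), 1 by line (of 4) and 1 for the difference between cell types (of 3). Between the subsets over 3 gels, library totals left 3 calls. Within co-culture, no filter left 1 call and the replicate block gave 7; the block changed no other count of the 10 genes (5 over 3 gels, 0 for the difference in response, 8 in shared gels). In tumor cells by culture, DESeq2 and the fit over all 10 libraries each left 3 calls and the model without line 0, and by line RLE scaling left 2. Leaving out libraries gave 0 to 5 calls between the subsets over 3 gels, 0 to 2 within co-culture, 4 to 5 in either subset and over both by culture, 1 to 2 in tumor cells by culture, 2 by line, 7 to 8 and 6 to 7 between NFs and tumor cells alone and in shared gels, and 2 to 3 for the difference between cell types. Where a left-out library leaves a group with 1, that library is assumed to vary like the others, and fewer samples give less power. The cause of the other changes was not tested. Among the 10 genes, depth limits Tgfb2 and 10-SJK-221 Tgfbr3 in tumor cells, at 7 to 43 counts.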
